A study of Homo sapiens with 4 samples.

Results

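The Krüppel-like factors are a family of zinc-finger transcription factors, and the 10 members described here are KLF2, KLF3, KLF4, KLF5, KLF6, KLF7, KLF9, KLF10, KLF11 and KLF13. They were chosen by gene name among the array rows that are not control spots, and each name matched 1 probe, so that 10 of 14297 gene probes and 10 of 14272 named genes are described. The erythroid member KLF1 was not among the genes chosen. The cells were K562, an established human erythroleukaemia line, so the values describe a single cell line. One group was treated for 4 h with AC-1041, an analog of thalidomide, and the other group was control cells of the same line and time. The labels call the control untreated, while the methods of the study name the solvent DMSO. The dose is stated in the methods of the study and not in the labels. Each of 4 two-colour arrays compared RNA of treated cells with RNA of control cells. On arrays 1 and 2 the dye Cy5 marked the treated RNA, and on arrays 3 and 4 the dyes were swapped so that Cy3 did.

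Krüppel-like factors bind GC-rich and CACCC-type elements in promoters through zinc fingers at their C-terminal end, while their N-terminal parts differ and recruit different partners. KLF2, KLF4, KLF5, KLF6 and KLF7 are known mainly as activators. KLF3 is a repressor that binds the corepressor CtBP, and KLF9, KLF10, KLF11 and KLF13 carry a segment that binds the corepressor Sin3A. In erythroid cells the founding member, KLF1, activates the globin and membrane genes, and KLF3 acts on many of the same CACCC elements as a repressor. Several members are early response genes whose transcripts change soon after a stimulus, among them KLF6, KLF10 and KLF11, and the latter pair is also known as TGF-beta inducible early genes.

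The promoter windows of the 3 members with the largest log2 ratios past the threshold are shown because they differ in base composition and in the elements they hold. The sequences are the 250 bases before the start site in RefSeq (GRCh38.p14), written 5′ to 3′ on the strand of the gene. Capitals mark every match to a searched element on either strand.
KLF11, second start site, chr2:10043971-10044220, plus strand: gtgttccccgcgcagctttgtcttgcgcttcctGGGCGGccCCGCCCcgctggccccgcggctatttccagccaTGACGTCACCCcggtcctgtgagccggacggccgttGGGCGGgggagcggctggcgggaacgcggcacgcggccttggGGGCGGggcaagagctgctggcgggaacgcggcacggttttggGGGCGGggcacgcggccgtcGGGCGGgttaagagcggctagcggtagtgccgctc
KLF9, chr9:70414658-70414907, minus strand: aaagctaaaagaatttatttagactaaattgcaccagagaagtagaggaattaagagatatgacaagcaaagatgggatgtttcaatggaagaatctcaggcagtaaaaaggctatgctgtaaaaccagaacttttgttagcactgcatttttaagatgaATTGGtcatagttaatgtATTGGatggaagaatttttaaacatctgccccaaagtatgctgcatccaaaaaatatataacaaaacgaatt
KLF6, chr10:3785210-3785459, minus strand: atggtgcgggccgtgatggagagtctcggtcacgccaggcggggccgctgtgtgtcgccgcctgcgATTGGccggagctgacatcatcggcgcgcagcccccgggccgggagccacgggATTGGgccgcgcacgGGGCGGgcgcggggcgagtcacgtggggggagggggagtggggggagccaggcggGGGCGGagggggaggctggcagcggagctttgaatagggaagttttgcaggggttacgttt

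The elements searched were the CACCC box, the GC box GGGCGG, the CCAAT box, the cAMP response element TGACGTCA, the AP-1 site TGANTCA, the C/EBP-ATF element TGATGNAA, the CArG box and the MEF2 site, on both strands and with N for any base. The KLF11 window held 6 GC boxes and 1 cAMP response element, which overlapped a CACCC box by 2 bases, and 74.4% of its bases were G or C. The other start site of KLF11 had 2 GC boxes. The KLF9 window held 2 CCAAT boxes, both read on the opposite strand, and no GC or CACCC box, with 32.4% G or C. The KLF6 window held 2 GC boxes and 2 CCAAT boxes at 72.4% G or C. Of 35116 RefSeq promoter windows of the same length, 42.6% held a GC box, 54.7% a CACCC box, 32.0% a CCAAT box and 1.65% a cAMP response element. Windows were used for 8 of the 10 members with 13 start sites in all, and KLF3 and KLF10 were left out. A GC box was found in 8 of the 13 windows, from KLF2, KLF4, KLF5, KLF6, KLF7, KLF11 and KLF13. A CACCC box and a CCAAT box were found in 6 each. The cAMP response element was found in KLF11, the MEF2 site in KLF2 and the CArG box in KLF7, each in 1 window, against 1.65%, 2.80% and 1.16% of all windows. The AP-1 site and the C/EBP-ATF element were in 0 of 13, against 6.57% and 3.14% of all windows. These matches describe the letters of the windows, and binding was not measured.

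Of the 10 members, 8 had a probe that could be tested, and 6 of them were higher in treated cells, namely KLF2, KLF4, KLF6, KLF9, KLF10 and KLF11. None was lower, and KLF3 and KLF13 did not pass the threshold. The KLF4 probe passed the filter on dim probes only through its treated channel, the higher one, so its call is not independent of that filter. The KLF2 probe passed it only through its control channel, on arrays 3 and 4, where the KLF2 ratio was below 0. Of all 8852 probes tested, 23.2% were called higher and 13.1% lower at a limma adjusted p under 0.05 in a fit with a treatment and a dye term. Log2 ratios, treated over control, had a median of 0.35 over the 8 members tested and 0.012 over all probes tested. Only KLF4, KLF9 and KLF11 were higher on all 4 arrays, 3 of 8, and 0 were lower on all 4. Of the probes with a value on every array, 16.3% were higher on all 4 and 9.59% lower. The dye term itself passed the threshold in 6 of the 8 members and in 57.5% of all probes tested. Without that term, 0 members passed the threshold in limma, 2 had an unadjusted p under 0.05 (KLF9 and KLF11), and 0.559% of all probes were called higher and 0.0448% lower.

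**Figure D1:**
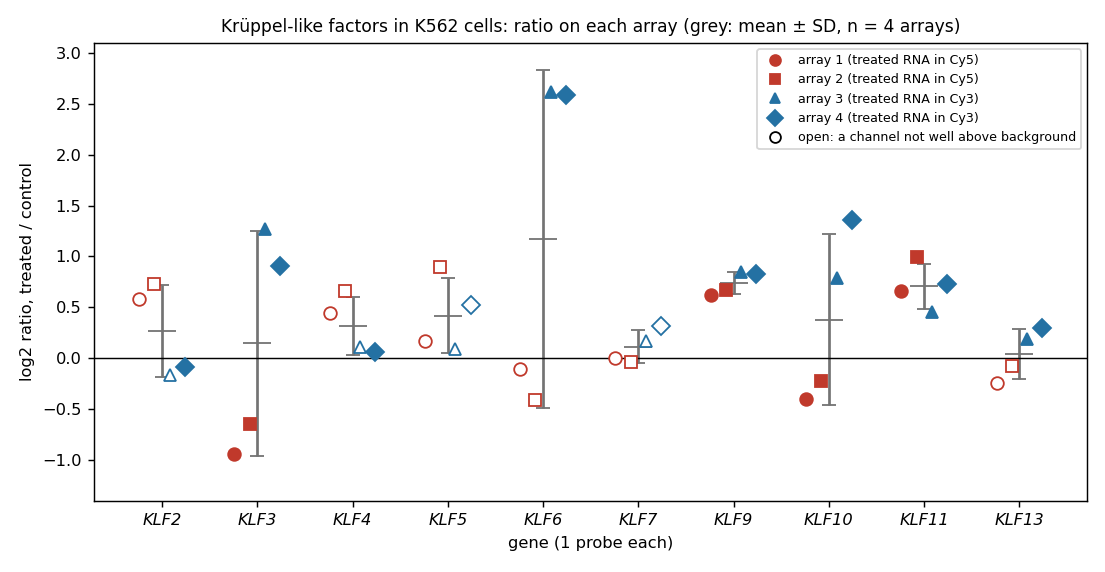
Log2 ratio of treated to control cells on each of the 4 arrays for the 10 Krüppel-like factors, in red where the treated RNA carried Cy5 and in blue where it carried Cy3. Grey bars are the mean and SD over the 4 arrays, and open symbols mark spots with a channel not well above background. KLF9 and KLF11 lie between 0.46 and 0.99 on every array, while KLF3, KLF6, KLF10 and KLF13 lie below 0 in red and above 0 in blue.

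The 2 dye orientations differed beyond these genes. Log2 ratios correlated over all probes with r = 0.80 between arrays 1 and 2 and 0.94 between arrays 3 and 4, but with r from -0.31 to -0.12 between arrays of opposite orientation. The SD of the negative control spots was 226 to 308 on arrays 1 and 2 and 27.8 to 40.5 on arrays 3 and 4. All arrays lay on the same slide and had the same scan date. Dye and array quality cannot be told apart, and nothing in the labels ties the arrays to separate cultures. Because the fit has a dye term, its p-values measure the spread between arrays of the same orientation, which may be technical. The difference between the 2 orientations goes into the dye term and not into the SE or p-value of treatment. In control cells, 12 of 13 erythroid and megakaryocytic marker genes were well above background on all 4 arrays, among them GATA1 and HBG1, and TAL1 was on some. Of 15 markers of 5 other cell types, 7 were above it on no array and 4 on all 4, LYZ and EPCAM among them.

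Among the Sin3A-binding repressors, KLF9 and KLF11 rose and were above 0 on every array, KLF10 rose in the fit but changed sign with the dye, and KLF13 did not pass the threshold. KLF9 is a repressor known to be induced by glucocorticoid and thyroid hormones. Its log2 ratio was 0.63 and 0.67 on arrays 1 and 2, and 0.84 and 0.82 on arrays 3 and 4. The 4 values lay close together on both sides of the dye swap, and both channels were well above background on every array. The mean log2 ratio was 0.74 ± 0.11 (SD, n = 4), a 1.67-fold higher level, with an SE of 0.062, a 95% confidence interval of 0.60 to 0.88 and a limma adjusted p of 0.000157. On the scale of normalized log2 intensity, the treated channel of the KLF9 probe read 12.42, 12.82, 12.82 and 12.73 on arrays 1 to 4, and the control channel read 11.79, 12.15, 11.97 and 11.91. Every treated value was above every control value, but the share of all probes with such a separation was not computed. The dye term of KLF9 had a limma adjusted p of 0.227. The probe was placed by the files at chr9:72189657-72189716 on the minus strand of hg18.

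KLF11, a partner of Sin3A that is induced early by TGF-beta, had log2 ratios of 0.66, 0.99, 0.46 and 0.73 on arrays 1 to 4. All were positive, array 2 was the highest and array 3 the lowest, with means of 0.83 where the treated RNA was in Cy5 and 0.59 where it was in Cy3. The dye term of KLF11 did not pass the threshold (limma adjusted p = 0.252). The mean log2 ratio was 0.71 ± 0.22 (SD, n = 4), or 1.63-fold, with an SE of 0.083, a 95% confidence interval of 0.52 to 0.90 and a limma adjusted p of 0.000604. Its treated channel read 12.48, 12.85, 12.45 and 12.74 in normalized log2 intensity and its control channel 11.82, 11.86, 11.99 and 12.02. Again every treated value exceeded every control value. The ratios of KLF9 and KLF11 differed from each other by less than the SD over arrays of either. The KLF11 probe was at chr2:10112097-10112156, plus strand, hg18. Without the dye term their limma adjusted p-values were 0.0682 and 0.0832, the lowest among the 8 members.

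KLF10, the other TGF-beta inducible early gene of this group, had log2 ratios of -0.40, -0.22, 0.78 and 1.36 on arrays 1 to 4. The ratio was thus below 0 on both arrays with the treated RNA in Cy5 and above 0 on both arrays with it in Cy3, although both channels were well above background on all 4. The mean was 0.38 ± 0.84 (SD, n = 4), with an SE of 0.099 and limma adjusted p-values of 0.0200 for treatment and 0.000831 for the dye term. Without array 4 the log2 ratio of KLF10 was 0.24 at a limma adjusted p of 0.174, and with the signals processed by Feature Extraction the adjusted p was 0.0851. Over 17 alternatives the adjusted p of KLF10 ran from 8.76e-05 to 0.686. KLF13, which binds Sin3A and is known as a late activator of a chemokine gene in T cells, gave log2 ratios of -0.24, -0.08, 0.19 and 0.30. Its mean of 0.04 ± 0.24 (SD, n = 4) had a 95% confidence interval of -0.11 to 0.20 and a limma adjusted p of 0.649. The KLF13 probe was well above background on arrays 3 and 4 only, and its ends lay 44280 bases apart on the plus strand of hg18 (chr15:29407265-29451544).

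**Figure D2:**
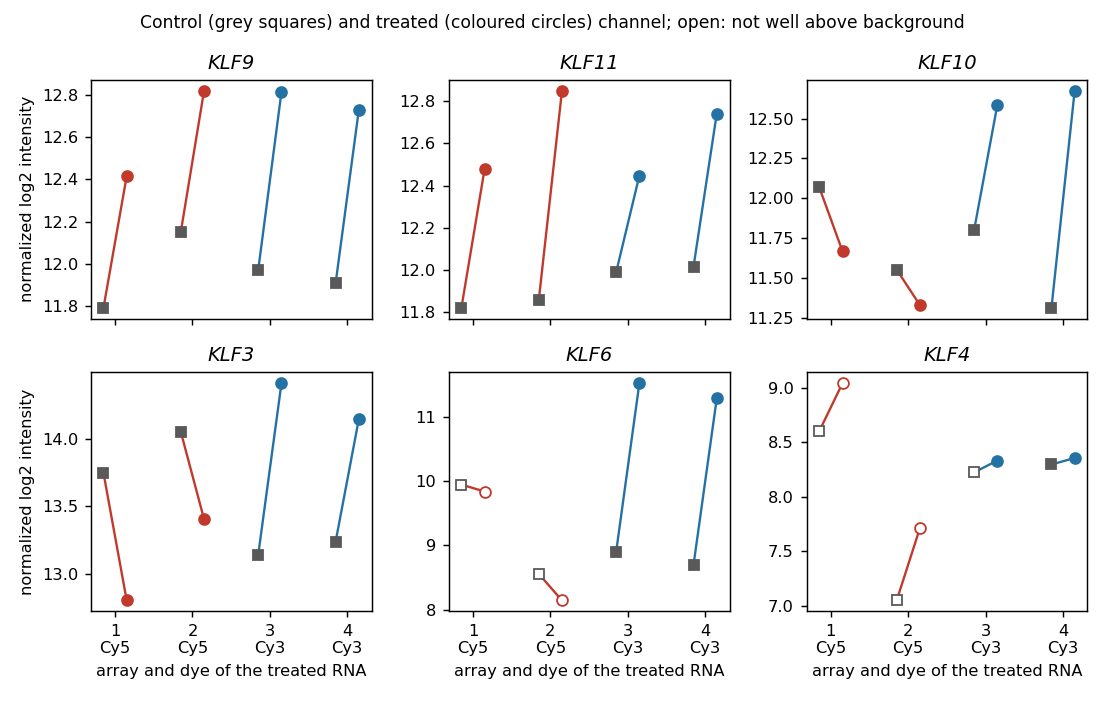
Normalized log2 intensity of the control channel (grey squares) and the treated channel (coloured circles) on each array for 6 members, with a separate scale in each panel and open symbols where the spot was not well above background. The treated channel lies above the control channel on all 4 arrays for KLF9 and KLF11, and only on arrays 3 and 4 for KLF10, KLF3 and KLF6.

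KLF3, the CtBP-binding repressor, was well above background in both channels on every array and had opposite signs under the opposite dyes. Its log2 ratio was -0.95 and -0.65 on arrays 1 and 2, and 1.27 and 0.91 on arrays 3 and 4. The channel labelled with Cy3 was the brighter one on each array, whichever RNA it held. The mean of 0.15 ± 1.1 (SD, n = 4) had a 95% confidence interval of -0.053 to 0.35 and a limma adjusted p of 0.218, while the dye term had an adjusted p of 0.000118. Without array 1 the log2 ratio was 0.22 and passed the threshold (limma adjusted p = 0.0254), the single one of 17 alternatives to do so, with adjusted p-values up to 0.934 in the others. The KLF3 probe lay at chr4:38378913-38378972 on the plus strand of hg18.

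Of the 5 members known mainly as activators, KLF2, KLF4 and KLF6 could be tested and all 3 were called higher, but none of these was well above background in both channels on every array. KLF6, an early response gene also known as a tumour suppressor, had the largest log2 ratio of the members, and its positive values came from the arrays with the treated RNA in Cy3. The log2 ratio of KLF6 was -0.11 and -0.41 on arrays 1 and 2, and 2.62 and 2.59 on arrays 3 and 4. The mean was 1.17 ± 1.66 (SD, n = 4), with an SE of 0.073 and limma adjusted p-values of 4.92e-05 for treatment and 1.55e-05 for the dye term. On arrays 3 and 4, where both channels were well above background, the mean ratio was 6.08-fold. Both of these arrays had the treated RNA in Cy3, so treatment and dye cannot be told apart in that value. No fold is given for arrays 1 and 2, where neither channel was, and the mean over the 4 arrays includes them.

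The scanned intensities of the KLF6 spot show where that split lay. On array 3 the treated channel read 2696 and the control channel 421, and on array 4 they read 2245 and 386.5. On array 1 the treated and control channels read 1080 and 1188, and on array 2 they read 535 and 606. The spot was well above background in both channels on arrays 3 and 4 and in neither channel on arrays 1 and 2, where Feature Extraction had estimated a background of 678 and 761 on array 1 and of 433 and 322 on array 2. On arrays 3 and 4 that estimate was 137 to 164. The probe, at chr10:3808811-3808870 on the minus strand of hg18, had 18.3% G or C, and 0.161% of the probes on the array had as low a share or lower. The log2 ratio of KLF6 was 1.16 with the array median of the local background, 1.14 with no background subtraction and 1.33 with the processed signals. Whether base composition had a part in the KLF6 result was not tested.

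**Figure D3:**
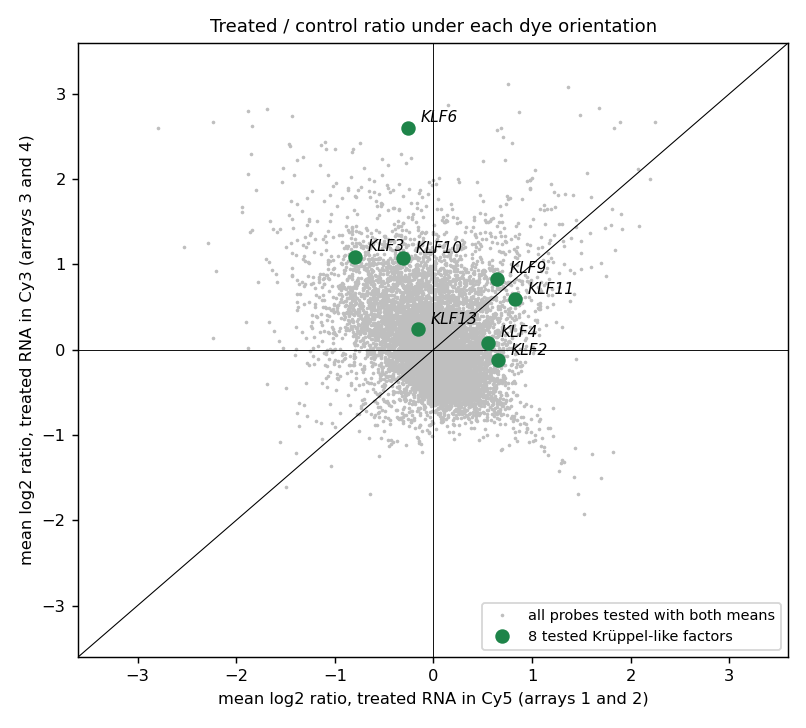
Mean log2 ratio of treated to control cells with the treated RNA in Cy5 (horizontal axis, arrays 1 and 2) against that in Cy3 (vertical axis, arrays 3 and 4), for the 8 Krüppel-like factors tested (green) and all other probes with both means (grey). KLF9, KLF11 and KLF4 lie in the upper right, KLF3, KLF6, KLF10 and KLF13 in the upper left, and KLF2 in the lower right. Of these 8 KLF6 is farthest from the diagonal.

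KLF4, a regulator of pluripotency and of cell cycle arrest, had log2 ratios of 0.44, 0.66, 0.11 and 0.06 on arrays 1 to 4. All 4 were above 0, with arrays 3 and 4 close to it. The mean was 0.32 ± 0.29 (SD, n = 4), with an SE of 0.068 and a limma adjusted p of 0.0095. The low values on arrays 3 and 4 went with a high local background, which was 177 and 174 beside the spot in the treated channel and 62 and 61 in the control channel. The 99th percentile of that background was 98 and 82.5 in the treated channel of these arrays, and Feature Extraction had marked both as background outliers. With the array median of the local background in place of each spot's own, a choice made after the data were seen, the log2 ratios of KLF4 became 0.43, 0.67, 0.73 and 0.71. Their mean was then 0.64 ± 0.14 (SD, n = 4; limma adjusted p = 0.000476). With the signals processed by Feature Extraction they became -0.50, 0.04, 1.27 and 1.20, so that array 1 was below 0 and arrays 3 and 4 were the highest, and their mean was 0.50 ± 0.87 (SD, n = 4; limma adjusted p = 0.0241). The scanned intensities were 347 and 329 in the treated channel and 202 and 214 in the control channel of arrays 3 and 4. The KLF4 spot was well above background in the treated channel on 2 arrays and in the control channel on 1, and without array 3 or array 4 its limma adjusted p was 0.0911 and 0.0900, within a range of 0.000125 to 0.422 over 16 alternatives. The probe lay at chr9:109287870-109287929, minus strand, hg18.

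KLF2, which holds T cells in quiescence and takes part in embryonic globin expression, had log2 ratios of 0.58, 0.73, -0.16 and -0.08. The direction followed the dye in the opposite way to KLF3, KLF6, KLF10 and KLF13, with the higher values on arrays 1 and 2. The mean was 0.27 ± 0.45 (SD, n = 4), with an SE of 0.066 and a limma adjusted p of 0.0167. On arrays 1 and 2, where the ratio was positive, neither channel of the KLF2 spot was well above background. From the signals processed by Feature Extraction the log2 ratios were -0.07, -0.22, -0.26 and 0.005, and the mean of -0.14 was on the other side of 0 (limma adjusted p = 0.237). Over 16 alternatives the adjusted p of KLF2 ran from 0.00159 to 0.635. The probe lay at chr19:16297204-16297263 on the plus strand of hg18.

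**Figure D4:**
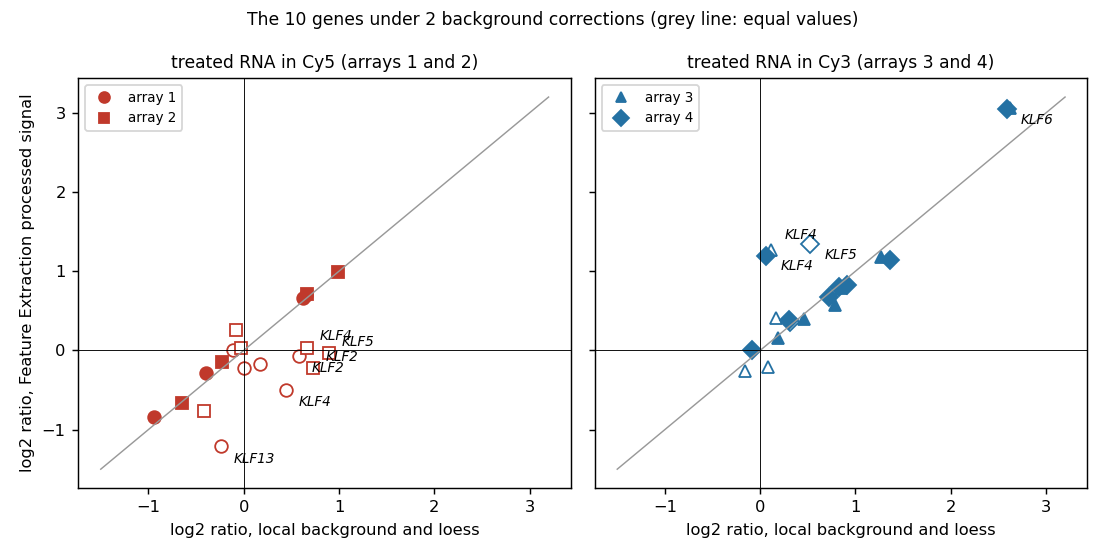
Log2 ratio of the 10 members after local background correction and loess (horizontal axis) against that from Feature Extraction's processed signals (vertical axis), with arrays 1 and 2 on the left and arrays 3 and 4 on the right. Filled symbols have both channels well above background, and apart from KLF4 on array 4 and KLF6 they lie near the line of equal values. Labels mark the points farthest from that line, which belong to KLF2, KLF4, KLF5, KLF6 and KLF13.

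KLF5, an activator linked to proliferation of epithelial cells, and KLF7, known from the nervous system, were too dim for the test. KLF5 was well above background in the treated channel on array 4 only, with log2 ratios of 0.17, 0.90, 0.09 and 0.53. Its probe ends lay 1149 bases apart at chr13:72534862-72536010, plus strand, hg18. KLF7 was not well above background in either channel on any array, and its log2 ratios were 0.00, -0.03, 0.17 and 0.32. Its probe lay at chr2:207653813-207653872 on the minus strand. With no filter on dim probes the log2 ratio was 0.42 for KLF5 (limma adjusted p = 0.0361) and 0.11 for KLF7 (limma adjusted p = 0.248), but no fold is given, because the levels lay below what these arrays measured.

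The order of the log2 ratios among the members tested was KLF6, KLF9, KLF11, KLF10, KLF4, KLF2, KLF3 and KLF13. Because the SD over arrays was 1.66 for KLF6 and 0.84 for KLF10, the gaps between neighbours in this order were smaller than the spread over arrays of at least 1 of the pair. Each measured value concerns the transcript, and protein was not measured.

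**Figure D5:**
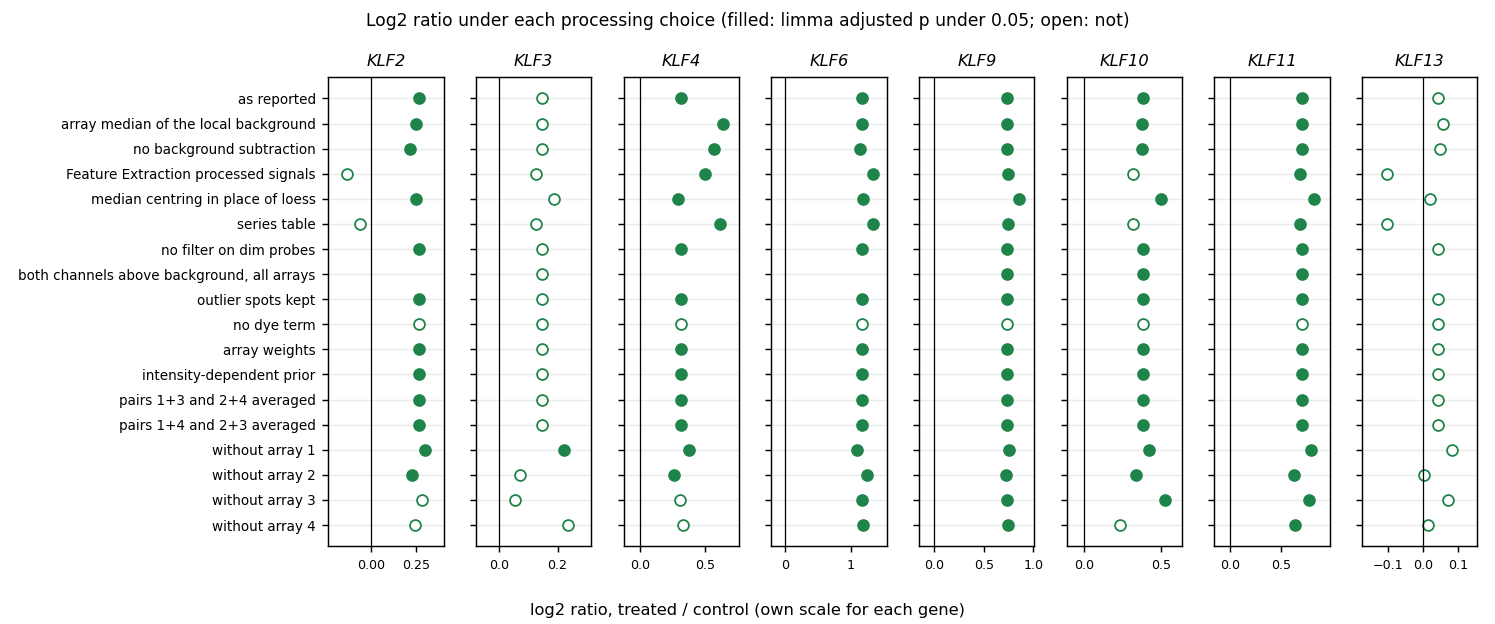
Log2 ratio of the 8 tested members under each processing choice, with a separate horizontal scale for each gene, filled where the limma adjusted p was under 0.05. KLF9 stays between 0.73 and 0.86 and KLF11 between 0.62 and 0.83, both filled except without the dye term, while KLF2 and KLF13 cross 0 under the processed signals and under the authors' ratio table.

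Genes around the family were read from 6 lists, of which 58 genes were tested. Of these 28 passed the threshold, 14 higher and 14 lower, against 36.3% of all probes tested in either direction. In 18 of the 28 the sign was the same on every array measured, and only ATF3 passed the threshold without the dye term. Among relatives outside the 10 members, 8 were tested, 3 were higher and 1 was lower, with a median log2 ratio of 0.047. Those higher were SP8 at 0.85 ± 0.44 (SD), KLF15 at 0.58 ± 0.50 and the GC-box factor SP3 at 0.58 ± 0.47. Like KLF4, the SP8 probe passed the filter only through its treated channel. KLF1 was the lower one at -0.70 ± 0.51 (SD, n = 4; limma adjusted p = 0.000549) and was below 0 on all 4 arrays.

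Of 11 cofactors tested, 3 were higher and 2 lower, at a median log2 ratio of 0.032, and these shares were close to the 23.2% higher and 13.1% lower of all probes tested. The acetyltransferase gene EP300 rose by 0.50 ± 0.47 (SD), and of the Sin3 complex SAP30 rose by 0.34 ± 1.01 and SIN3A by 0.26 ± 0.46. SIN3B fell by 0.29 on the log2 scale and the deacetylase HDAC2 fell by 0.44. SAP30, SIN3A and SIN3B changed sign with the dye, whereas EP300 and HDAC2 kept theirs on all 4 arrays. In the MEK5-ERK5-MEF2 route that activates KLF2 and KLF4, 7 genes were tested, with a median of 0.10. MEF2A was higher at 0.61 ± 0.24 (SD) and above 0 on every array. MEF2C was lower at -0.60 ± 0.73, with -1.10 and -1.34 on arrays 1 and 2 but 0.07 and -0.02 on arrays 3 and 4. Of 8 tested genes for ubiquitin ligases and a deubiquitinase (BAP1) that act on KLF proteins, 4 were higher and 0 lower, with a median of 0.23. BTRC was higher at 0.33 and SMURF2 and ITCH at 0.23 each, and SMURF2 changed sign with the dye. FBXO32 was higher at 0.77 ± 0.41 (SD; limma adjusted p = 0.00078), but its probe passed the filter only through the treated channel. That channel was well above background on 2 arrays and the control channel on 0, so no fold is given.

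The last lists held genes reported as targets of the family and genes of the TGF-beta early response, to which KLF10 and KLF11 belong. Neither list was split by the direction expected of its genes. The counts and medians of these lists therefore do not measure the activity of the family or of TGF-beta. Of 14 reported targets tested, 2 were higher and 5 lower, at a median log2 ratio of -0.15, against 23.2% higher and 13.1% lower of all probes. ATF3, a stress-induced transcription factor, was higher at 2.10 ± 0.39 (SD, n = 4; limma adjusted p = 5.52e-05), and the cell cycle inhibitor CDKN1B at 0.56 ± 1.32, which changed sign with the dye. CCND1, which encodes cyclin D1, fell by 0.75, CDKN1C by 0.72 and the thrombomodulin gene THBD by 0.39 on the log2 scale. The CCND1 probe passed the filter only through its control channel, the higher one. Of 11 TGF-beta early response genes tested, 1 was higher and 6 lower, with a median of -0.27, beside the same shares of all probes. SMAD7 stands in both lists and is counted in each. The single one higher was SKIL, a Smad corepressor, at 0.35 ± 0.22 (SD). ID1, an inhibitor of differentiation factors, fell by 1.13 on the 3 arrays with a value, the receptor decoy BAMBI fell by 0.84 and ID2 fell by 0.66. KLF10 and KLF11 themselves were higher in the same fit, and the difference between their ratios and those of this list was not tested.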

How the data were processed

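Gene expression was measured on 4 Agilent two-colour arrays of 14297 gene probes, each holding treated and control K562 RNA. The authors scanned them with Feature Extraction 9.5.1.1, and the deposited intensity of each spot and its local background, in both channels, was used without prior normalization. The deposited processed intensity is corrected by the authors' software for background and dye. The authors' series table holds log10 ratios. On arrays 3 and 4 it matched the log10 ratio of the scanner with the sign turned (99.9% of values within 0.001), so it reads treated over control, and its median was 0 on each array. Feature Extraction's other flags, as deposited, gave outlier spots and spots well above background. Its error and p-value columns were not used.

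The normexp correction (offset 50) was fitted on every spot of an array. After removal of control spots, loess (span 0.3) was run within each array, and outlier spots were dropped. The test took each probe that, on 2 arrays or more, exceeded background clearly in 1 channel or both. Log2 ratios were fitted in R 4.3.3 by limma 3.58.1 to treatment and dye orientation, and p-values were Benjamini-Hochberg adjusted over 8852 probes. On simulated ratios for this comparison, the fit found 87% of 200 probes given a log2 change of 1, and the share of false calls was 1.14%. Both values describe the simulated ratios and are not error rates of the calls reported here. Probe positions are those of the files (hg18). List genes were named through accessions in RefSeq, which matched 12002 of 14297 probes. Promoter windows were searched with Python 3.11.15. With 4 arrays an exact sign-flip test cannot go below p = 0.125.

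The genes named are all 10 members, KLF1, and up to 3 called genes in each direction from each list (relatives, cofactors, the MEK5-ERK5-MEF2 route, ubiquitin ligases, reported targets, TGF-beta early response), taken by the size of the log2 ratio. ITCH was added after its value was seen. The members and lists were chosen with earlier results of these data known. Values of some marker genes are not reported here.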

Additional observations from a re-analysis of the deposited data

How the results depend on the processing

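KLF9 and KLF11 passed the threshold in limma under 16 of 17 alternatives each, the exception being the fit without the dye term. KLF6 passed under 15 of 16, KLF4 and KLF10 under 13 of 16 and of 17, KLF2 under 11 of 16, KLF3 under 1 of 17 and KLF13 under 0 of 16, with KLF13 adjusted p-values up to 0.985. With Feature Extraction's processed signals the log2 ratio changed sign to -0.14 in KLF2 and -0.10 in KLF13, and with the series table to -0.065 and -0.10. The number of members higher was 3 of 4 tested when both channels had to be well above background on all arrays. Without the dye term it was 0 in limma, with 2 members at an unadjusted p under 0.05. Leaving out each array in turn gave 3 to 7 members higher, 3 of them without array 4, 0 to 0 lower, and a median log2 ratio of 0.29 to 0.42. Of the list genes, 6 were higher with both channels above background, and 9 at an adjusted p under 0.01. Without the dye term 1 was higher and 0 lower in limma, with 10 lower at an unadjusted p under 0.05. Leaving out each array gave 8 to 19 higher, 8 without array 3 or array 4, and 7 to 17 lower, 9 without array 3 and 7 without array 4. KLF2 lost its call without array 3 (limma adjusted p = 0.0959) and without array 4 (limma adjusted p = 0.156). These causes were not tested. Using another probe of a gene was not run, since each member had 1 probe. The array median of the local background was added as an alternative after the data were seen. Averaging arrays of opposite dye as pairs (1 with 3 and 2 with 4, or 1 with 4 and 2 with 3) left 6 members higher each time. Within such a pair the difference between orientations cancels, as it does with the dye term. The averaging therefore could not show a disagreement between the orientations. No fit with a replicate block was possible because each array already holds both groups and the labels number only the arrays. Precision is limited by the number of arrays and by the background on arrays 1 and 2, where KLF2, KLF4, KLF5, KLF6, KLF7 and KLF13 were not well above background in both channels.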
